A study of Homo sapiens with 24 samples.

Results

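Sister chromatid cohesion genes keep the copies of a replicated chromosome together until anaphase. The 8 genes described here are SMC3 and RAD21 of the cohesin ring, ESCO2, DSCC1 and CHTF18, which act in its establishment during replication, CDCA5, which maintains it, and SGO1 and SGO2, which protect it at centromeres. They are 8 of the 20992 genes named on the 24 h array and the 22439 on the 48 h array. They were chosen by name with earlier results of these data known, so the counts below, set beside the shares of all probes, are descriptions. A probe was assigned to a gene if its RefSeq accession mapped to it. This gave 10 probes among the 50599 of the 24 h array and the same 10 among the 58201 of the 48 h array, with 2 each for ESCO2 and SGO1 and 1 for each other gene. All 10 exceeded the background threshold at both time points and were tested.

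The cells were LNCaP, an established prostate cancer line. They were electroporated with 1 of 3 duplexes: si-A1 targets the long noncoding RNA TAPIR-1, si-A2 targets TAPIR-2, and scramble is a negative control, so the control cells had also been pulsed and given a duplex. Each group had 4 biological replicates at 24 h and 4 at 48 h, each on its own one-colour Agilent array, and 48 h si-A2 replicate 2, a dim array, was left out. Each transcript was targeted with 1 siRNA in 1 cell line on these arrays, 24 h and 48 h samples had different array versions, and at each time point 1 slide held replicates 1 and 2 and the other slide replicates 3 and 4.

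As background, cohesin is a ring of SMC1A, SMC3 and the kleisin RAD21, bound by a STAG subunit and loaded by NIPBL and MAU2. WAPL and PDS5 proteins open the ring again. In S phase ESCO2 acetylates SMC3 while the CTF18 clamp loader, which holds CHTF18, DSCC1, CHTF8 and the small RFC subunits, works at the fork, and sororin (the product of CDCA5) then counteracts WAPL. In mitosis shugoshins recruit a phosphatase that shields centromeric cohesin until securin (PTTG1) is degraded and separase (ESPL1) cleaves RAD21. Several of these genes are transcribed mainly in S, G2 and M phase, whereas the core ring is made throughout the cycle.

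The median processed intensity of an array was 24.4 to 57.2 at 24 h and 20.4 to 32.25 at 48 h. All 9 LNCaP markers tested, among them KLK3 and KRT8, were well above background on every array, and KLK2 (-1.07) fell after si-A1 at 48 h on the log2 scale. Of 6 markers of other cell types, KRT5 was well above background on none, and none of the 5 tested at 24 h and the 4 tested at 48 h was called in any comparison. PTPRC, a leukocyte gene, was well above background on every array with 2 of its 5 probes, and PECAM1, an endothelial gene, with 1 of its 3 probes at 24 h. The TAPIR-2 probe present on both array versions lay at 5.04 ± 0.20 (SD, n = 4) after scramble and 4.06 ± 0.74 (SD, n = 4) after si-A2 at 24 h, with a fitted log2 fold change of -0.98 (limma adjusted p = 0.23). It was well above background on 2 of 4 si-A2 arrays at 24 h. At 48 h this TAPIR-2 probe was not lower after si-A2, at 4.64 ± 0.58 (SD, n = 4) after scramble and 4.68 ± 0.90 (SD, n = 3) after si-A2, with a fitted log2 fold change of 0.23 (limma adjusted p = 0.7). Another TAPIR-2 probe, matched at 48 h only, was well above background on no array (log2 fold change -0.59 after si-A2, limma adjusted p = 0.606). The paper reports knockdown of both transcripts in LNCaP by qPCR at a later time point. The search took probes of either transcript and gave every hit the name TAPIR-2. No probe was named TAPIR-1, so the knockdown by si-A1 was not checked separately on these arrays. After si-A1 the probe present on both versions had log2 fold changes of -0.40 at 24 h and 0.18 at 48 h (limma adjusted p = 0.625 and 0.688). The probe matched at 48 h only had -0.78 after si-A1 (limma adjusted p = 0.327).

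Cohesion genes were lower after both siRNAs. At 24 h ESCO2, SGO1 and DSCC1 fell after si-A1, and the same genes and CDCA5 fell after si-A2, by between 1.63 and 2.87 on the log2 scale. At 48 h all 8 genes fell after si-A1, from -0.6 for SMC3 to -4.18 for ESCO2, while after si-A2 RAD21 and SGO2 fell and the other 6 genes had log2 fold changes between -1.61 and -0.32 that did not pass the test. With the replicate number as a block, RAD21 and SGO2 after si-A2 and SMC3 after si-A1 did not pass it either. A gene was called where limma gave an adjusted p below 0.01 and a log2 fold change of 0.5 or more in size. No cohesion gene was called higher after si-A1 or si-A2, against 0.0803% and 0.0892% of all probes at 24 h and 2.13% and 0.0686% at 48 h. The 3 genes called lower of 8 after si-A1 at 24 h compare with 1.02% of all probes tested, the 4 of 8 after si-A2 with 0.838%, the 8 of 8 after si-A1 at 48 h with 3.98%, and the 2 of 8 after si-A2 at 48 h with 0.376%. The median log2 fold change of the 8 genes at 24 h was -1.65 for si-A1 and -1.87 for si-A2, and at 48 h it was -2.53 and -1.01, whereas that of all probes lay between 0.00 and 0.05 in these comparisons. Since the RNA came from whole cultures, fewer cells expressing a gene and less RNA per cell cannot be told apart.

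Across single arrays, the siRNA and scramble groups did not overlap for 7 of the 8 genes after si-A1 at 24 h, against 5.4% of all probes with the siRNA group below. After si-A2 at 24 h this held for 6 of 8 genes against 4.42%, after si-A1 at 48 h for all 8 against 8.83%, and after si-A2 at 48 h for 6 against 7.26%. No gene lay above scramble without overlap, against 3.92% and 3.22% of probes after si-A1 and si-A2 at 24 h, then 6.75% and 4.02% at 48 h. An unadjusted p below 0.05 was reached by 7 of 8 genes for either siRNA at 24 h (13% of all probes for si-A1, 11.7% for si-A2), by 8 after si-A1 at 48 h (28.8%) and by 7 after si-A2 at 48 h (17.7%). Within each slide, every one of the 10 probes was lower after either siRNA than after scramble at both time points. Removing 1 array moved the number of calls. At 24 h si-A1 gave 3 calls without si-A1 replicate 1, 2 without scramble replicate 3, si-A2 replicate 2 or si-A2 replicate 4, and 1 without any other array. For si-A2 at 24 h the count was 5, 4 and 3 without si-A1 replicates 4, 1 and 2, and 1 or 2 without any other array. In these fits ESCO2 was called 12 of 12 times for either siRNA, CDCA5 7 of 12 times after si-A2, SGO1 2 of 12 times after si-A1 and 4 of 12 after si-A2, and DSCC1 2 of 12 times after each. Genes not called on all arrays were called in 1 of 12 of these fits, CHTF18 after si-A1 without scramble replicate 3 and SGO2 after si-A2 without si-A1 replicate 4. At 48 h si-A1 gave 7 or 8 genes, SMC3 being the one lost, and si-A2 gave none whichever of the 11 arrays was left out. With the replicate number as a block, si-A2 at 48 h gave 0 genes in place of 2. Normexp background correction, which adds an offset to dim signals, gave 5 genes after si-A1 at 24 h and 5 after si-A2 at 48 h, and smaller changes of dim genes, such as -0.98 for SGO1 after si-A1 at 24 h and -2.10 for ESCO2 and -1.36 for CDCA5 after si-A1 at 48 h.

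**Figure D1:**
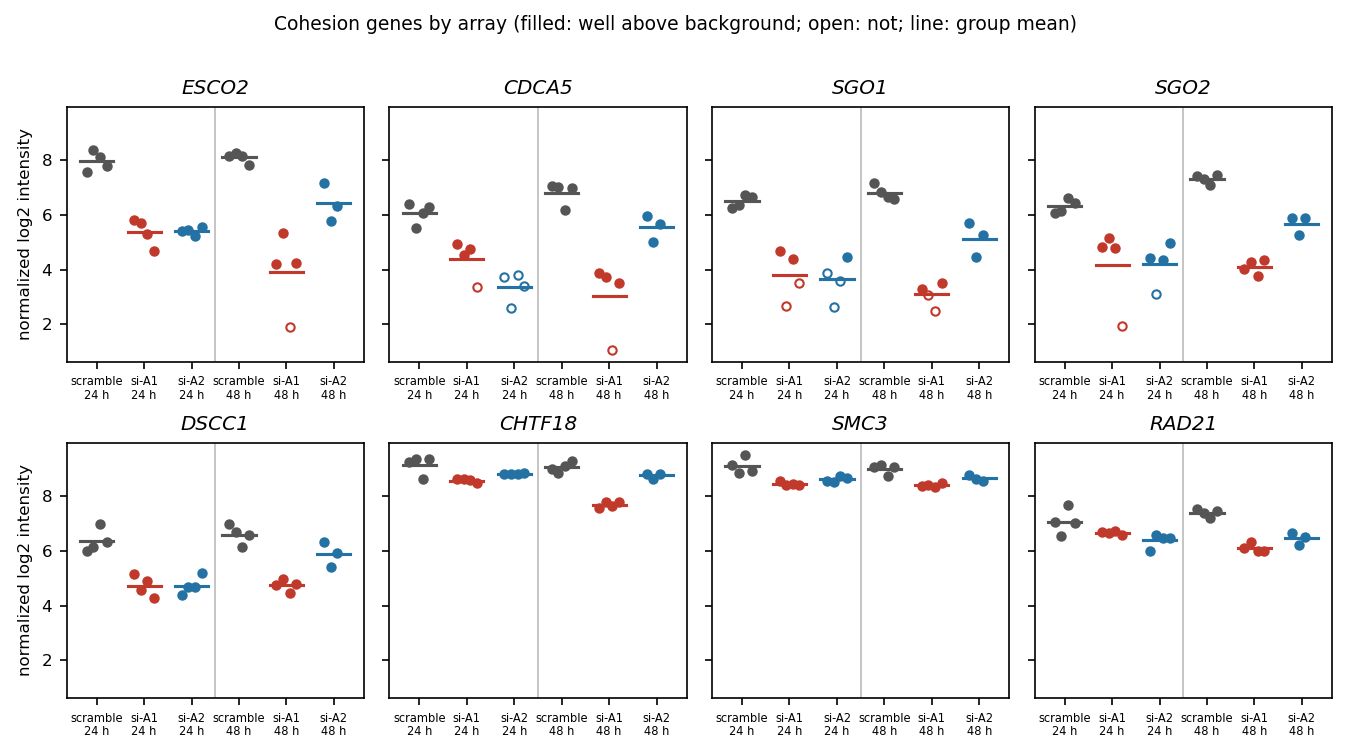
Normalized log2 intensity of the brightest probe of each cohesion gene on each array, by siRNA group and time point, with a line at the group mean; filled points were well above background and open points were not. The scramble arrays of ESCO2 lay between 7.58 and 8.38 and the siRNA arrays between 1.92 and 7.17, whereas the groups of CHTF18, SMC3 and RAD21 lay closer together.

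ESCO2 encodes the acetyltransferase that modifies SMC3 in S phase. Its brighter probe read 7.58, 8.38, 8.11 and 7.78 on the scramble arrays at 24 h, 5.83, 5.71, 5.3 and 4.69 after si-A1 and 5.42, 5.45, 5.24 and 5.56 after si-A2, in replicate order and on the normalized log2 intensity scale that all levels below share. Every array of either siRNA was below every scramble array, and the siRNA groups overlapped each other. The log2 fold change was -2.58 ± 0.24 (SE, adjusted p = 2.2e-04) after si-A1 and -2.55 ± 0.24 (SE, adjusted p = 2.1e-04) after si-A2. At 48 h the readings were 8.16, 8.26, 8.14 and 7.83 after scramble, 4.2, 5.33, 1.92 and 4.23 after si-A1 and 7.17, 5.77 and 6.32 after si-A2 (replicates 1, 3 and 4). The 3 groups were then stacked without overlap, with si-A2 in between, and the lowest si-A1 array, replicate 3, was not well above background. ESCO2 fell by 4.18 on the log2 scale after si-A1 (SE 0.51, limma adjusted p = 0.00102), and its value after si-A2 was -1.51 ± 0.56 (SE, adjusted p = 0.206). The dimmer ESCO2 probe gave -2.94 and -2.76 at 24 h and -4.23 and -1.36 at 48 h. ESCO2 was called lower after either siRNA at 24 h under all 26 alternative settings.

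DSCC1 and CHTF18 encode subunits particular to the CTF18 clamp loader. DSCC1 read 5.99, 6.14, 7.0 and 6.34 after scramble at 24 h, 5.16, 4.58, 4.9 and 4.28 after si-A1 and 4.4, 4.68, 4.68 and 5.18 after si-A2. Both siRNA groups lay below scramble without overlap, and the log2 fold changes were -1.64 ± 0.26 (SE, adjusted p = 0.0064) and -1.63 ± 0.26 (SE, adjusted p = 0.00715). The 24 h array carries 10 spots of this probe and the 48 h array 1. At 48 h DSCC1 read 6.96, 6.71, 6.13 and 6.59 after scramble, 4.74, 4.98, 4.47 and 4.78 after si-A1 and 6.34, 5.4 and 5.92 after si-A2. The si-A1 arrays lay below all others, the si-A2 arrays overlapped scramble, and the log2 fold changes were -1.86 ± 0.17 (SE, adjusted p = 2.1e-04) and -0.64 ± 0.19 (SE, adjusted p = 0.12). The DSCC1 calls at 24 h were kept under 14 of 26 alternative settings for each siRNA.

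CHTF18 read 9.24, 9.37, 8.64 and 9.36 after scramble at 24 h, 8.61, 8.62, 8.57 and 8.47 after si-A1 and 8.82, 8.79, 8.8 and 8.86 after si-A2. The si-A1 arrays lay below every scramble array, the si-A2 arrays lay above scramble replicate 3 and below the other scramble arrays, and the log2 fold changes of -0.58 ± 0.16 (SE, adjusted p = 0.11) and -0.33 ± 0.16 (SE, adjusted p = 0.462) did not pass the test. At 48 h the readings were 9.0, 8.84, 9.11 and 9.29, 7.58, 7.78, 7.63 and 7.79 and 8.82, 8.63 and 8.82 in the same order of groups. Here si-A1 lay below both other groups, the highest si-A1 array at 7.79 and the lowest of the others at 8.63, the highest si-A2 array lay just under the lowest scramble array, and CHTF18 fell by 1.37 on the log2 scale (SE 0.11, limma adjusted p = 1.2e-04). After si-A2 its value was -0.32 ± 0.12 (SE, adjusted p = 0.218).

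CDCA5 encodes sororin, which holds off WAPL from acetylated cohesin. At 24 h CDCA5 read 6.4, 5.52, 6.06 and 6.29 after scramble, 4.93, 4.54, 4.75 and 3.38 after si-A1 and 3.72, 2.6, 3.82 and 3.4 after si-A2. The groups did not overlap scramble, and no si-A2 array was well above background, so the fall after si-A2 is a bound: CDCA5 was at least 4.94-fold lower, from a scramble mean of 6.07 to the lowest measurable signal, with a measured si-A2 mean of 3.39. Such a bound takes, on each array of the dim group, the lowest signal among probes well above background or the probe's own signal if that is higher. The fitted change was -2.68 ± 0.38 (SE, adjusted p = 0.00344) after si-A2 and -1.67 ± 0.38 (SE, adjusted p = 0.0499) after si-A1, the latter not called. At 48 h CDCA5 read 7.04, 7.03, 6.19 and 6.99 after scramble, 3.87, 3.72, 1.06 and 3.51 after si-A1 and 5.94, 5.02 and 5.68 after si-A2. The 3 groups were separate, and replicate 3 was the lowest array of both scramble and si-A1. CDCA5 was well above background on 3 of 4 si-A1 arrays at 24 h and on 3 of 4 at 48 h. CDCA5 fell by 3.77 on the log2 scale after si-A1 (SE 0.49, limma adjusted p = 0.00137), and its value after si-A2, -1.12 ± 0.53 (SE, adjusted p = 0.317), did not pass the test.

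SGO1 and SGO2 encode the shugoshins. The brighter SGO1 probe read 6.27, 6.37, 6.74 and 6.67 after scramble at 24 h, 4.68, 2.69, 4.41 and 3.51 after si-A1 and 3.87, 2.63, 3.6 and 4.47 after si-A2. Both siRNA groups lay below scramble, and the probe was well above background on 2 of 4 arrays after si-A1 and on 1 of 4 after si-A2. The log2 fold changes were -2.69 ± 0.43 (SE, adjusted p = 0.00711) and -2.87 ± 0.43 (SE, adjusted p = 0.00509). At 48 h SGO1 read 7.16, 6.85, 6.66 and 6.59 after scramble, 3.3, 3.06, 2.51 and 3.53 after si-A1 and 5.69, 4.47 and 5.25 after si-A2. The order scramble, si-A2, si-A1 held without overlap, the probe was well above background on 2 of 4 si-A1 arrays, and the log2 fold changes were -3.72 ± 0.25 (SE, adjusted p = 6.2e-05) after si-A1 and -1.61 ± 0.28 (SE, adjusted p = 0.0213) after si-A2.

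The dimmer SGO1 probe disagreed in size at 24 h: its log2 fold changes were -1.11 ± 0.4 (SE, adjusted p = 0.258) after si-A1 and -1.15 ± 0.4 (SE, adjusted p = 0.256) after si-A2. Its signal was well above background on 3 of 4 scramble arrays, 2 of 4 si-A1 arrays and 1 of 4 si-A2 arrays at 24 h, and on all 4 scramble arrays but no siRNA array at 48 h. There the dimmer probe was at least 1.83-fold lower after si-A1 (scramble mean 4.07, measured si-A1 mean 1.42, limma adjusted p = 5.2e-05) and at least 1.68-fold lower after si-A2 (measured mean 2.75, limma adjusted p = 0.0106). With the median over its probes in place of the brightest, SGO1 was not called after si-A1 (-1.90, adjusted p = 0.0176) or si-A2 (-2.01, adjusted p = 0.0145) at 24 h in limma.

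**Figure D2:**
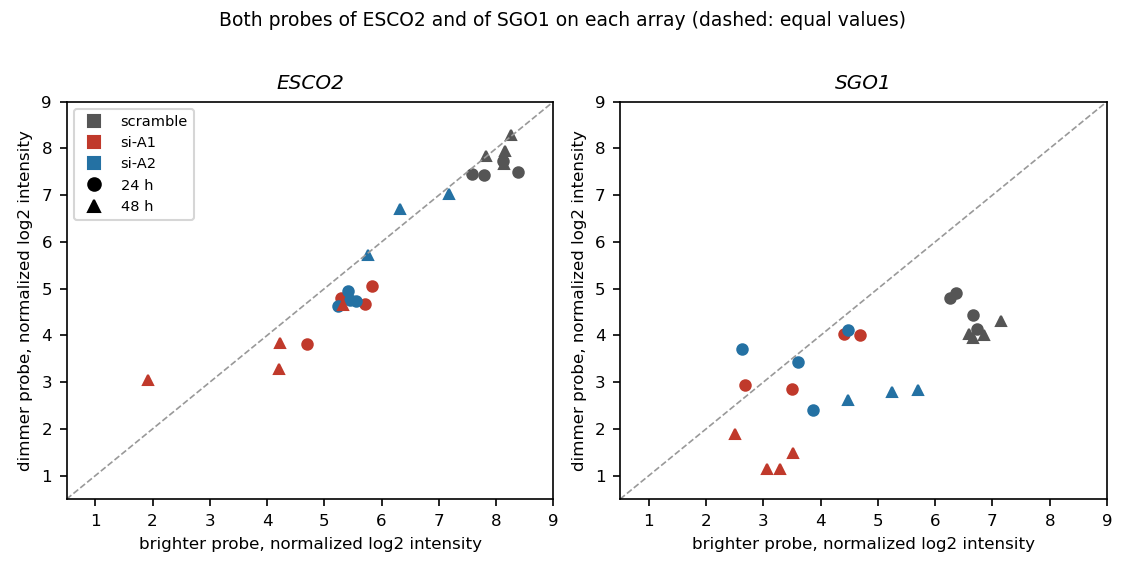
Both probes of ESCO2 and of SGO1 on each array, the brighter on the horizontal and the dimmer on the vertical axis, in normalized log2 intensity, coloured by group and shaped by time point; the dashed line marks equal values. The dimmer ESCO2 probe spanned 3.06 to 8.28 where the brighter one spanned 1.92 to 8.38, and the dimmer SGO1 probe spanned 1.14 to 4.91 where the brighter one spanned 2.51 to 7.16.

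SGO2 read 6.05, 6.16, 6.62 and 6.45 after scramble at 24 h, 4.82, 5.16, 4.78 and 1.94 after si-A1 and 4.44, 3.11, 4.34 and 4.96 after si-A2. The siRNA arrays were all below scramble, but they were spread widely, and si-A1 replicate 4 and si-A2 replicate 2 were not well above background. With this spread the log2 fold changes of -2.15 ± 0.65 (SE, adjusted p = 0.157) and -2.11 ± 0.65 (SE, adjusted p = 0.181) did not pass the test, and without si-A1 replicate 4 the si-A1 value was -1.34 (adjusted p = 0.115). At 48 h the readings were 7.4, 7.29, 7.08 and 7.46, 4.01, 4.27, 3.76 and 4.36 and 5.87, 5.26 and 5.89 after scramble, si-A1 and si-A2. All arrays were well above background, the 3 groups were separate, and SGO2 fell by 3.21 on the log2 scale after si-A1 (SE 0.18, limma adjusted p = 5.1e-05) and by 1.61 after si-A2 (SE 0.20, limma adjusted p = 0.0072). With the replicate number as a block the si-A2 change was -1.61 and missed the threshold (adjusted p = 0.0149).

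SMC3 and RAD21 encode an SMC subunit and the kleisin of the ring. SMC3 read 9.12, 8.83, 9.52 and 8.92 after scramble at 24 h, 8.56, 8.39, 8.44 and 8.41 after si-A1 and 8.54, 8.53, 8.74 and 8.68 after si-A2. All siRNA arrays lay below the lowest scramble array, and the log2 fold changes of -0.65 ± 0.15 (SE, adjusted p = 0.0599) and -0.48 ± 0.15 (SE, adjusted p = 0.204) did not pass the test. At 48 h SMC3 read 9.05, 9.13, 8.74 and 9.05 after scramble, 8.36, 8.42, 8.33 and 8.48 after si-A1 and 8.76, 8.63 and 8.57 after si-A2. The si-A2 arrays overlapped scramble replicate 3, the si-A1 arrays did not, and SMC3 fell by 0.6 after si-A1 (SE 0.10, limma adjusted p = 0.00495). This call was lost with the replicate block (-0.6, adjusted p = 0.0127). After si-A2 the value was -0.32 ± 0.11 (SE, adjusted p = 0.172).

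RAD21, which separase cuts at anaphase, read 7.05, 6.54, 7.67 and 7.01 after scramble at 24 h, 6.68, 6.64, 6.73 and 6.59 after si-A1 and 6.0, 6.6, 6.46 and 6.46 after si-A2. Scramble replicate 2 lay below all si-A1 arrays and within the range of the si-A2 arrays, and the log2 fold changes were -0.41 ± 0.21 (SE, adjusted p = 0.438) and -0.69 ± 0.21 (SE, adjusted p = 0.171). At 48 h RAD21 read 7.54, 7.4, 7.19 and 7.44 after scramble, 6.09, 6.32, 6.01 and 6.01 after si-A1 and 6.65, 6.23 and 6.5 after si-A2. Both siRNA groups lay below scramble and overlapped each other, and RAD21 fell by 1.29 after si-A1 (SE 0.10, limma adjusted p = 1.1e-04) and by 0.90 after si-A2 (SE 0.11, limma adjusted p = 0.00759). The si-A2 call was lost with the replicate block (-0.90, adjusted p = 0.0214).

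**Figure D3:**
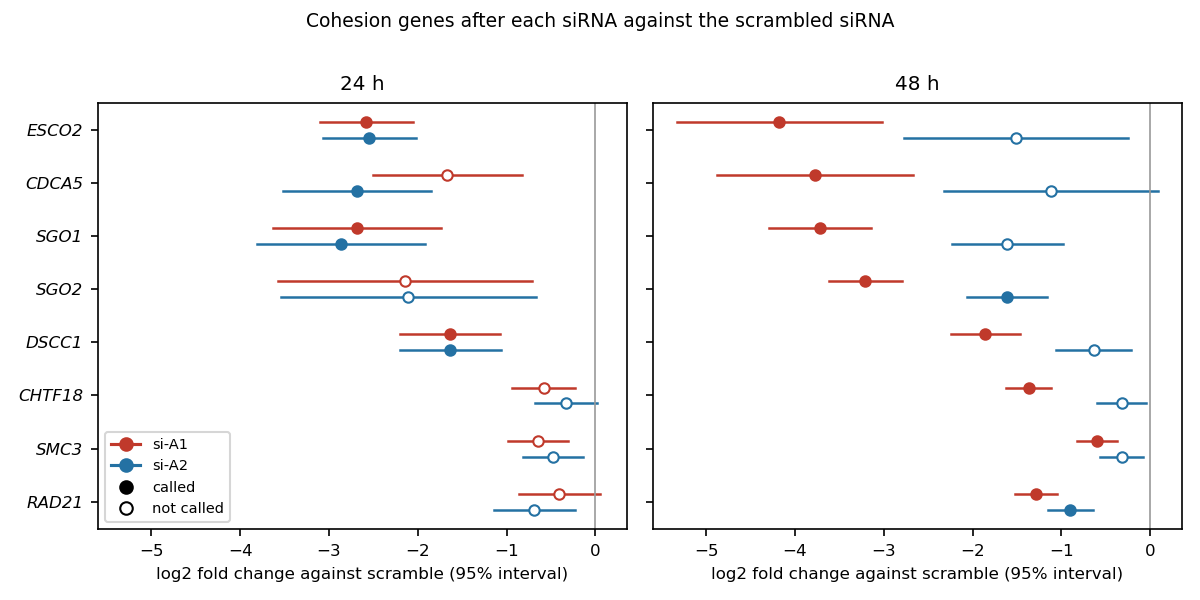
Log2 fold change of each cohesion gene against scramble with its 95% confidence interval from limma, for si-A1 (red) and si-A2 (blue) at 24 h and 48 h; filled points were called and open points were not. All points lie below 0. ESCO2 lies at -2.58 and -2.55 at 24 h and at -4.18 and -1.51 at 48 h after si-A1 and si-A2.

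The siRNAs were also compared with each other. At 24 h no cohesion gene differed between si-A2 and si-A1 in limma, against 0.114% of all probes called lower and 0.252% called higher after si-A2, and 1 of 8, CDCA5, had an unadjusted p below 0.05 (11.4% of all probes). The si-A2 arrays lay above those of si-A1 without overlap for 1 gene, CHTF18 (5.61% of all probes), and below for none (4.93%). The CDCA5 difference, si-A2 minus si-A1, was -1.02 ± 0.38 (SE, adjusted p = 0.305), where the groups overlapped and no si-A2 array was well above background. The 95% interval of the difference was -0.49 to 0.56 for ESCO2, -1.12 to 0.77 for SGO1 and -1.39 to 1.47 for SGO2 on the log2 scale.

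At 48 h 4 of 8 cohesion genes had higher levels with si-A2 than with si-A1, against 0.983% of all probes, and none had lower ones, against 0.465%. They were SGO1 with a log2 difference of 2.11 ± 0.28 (SE, adjusted p = 0.00441), SGO2 with 1.6 ± 0.2 (SE, adjusted p = 0.00374), DSCC1 with 1.22 ± 0.19 (SE, adjusted p = 0.00816) and CHTF18 with 1.05 ± 0.12 (SE, adjusted p = 0.00315). The differences of ESCO2, 2.67 ± 0.56 (SE, adjusted p = 0.0292), and CDCA5, 2.66 ± 0.53 (SE, adjusted p = 0.0251), were larger but missed the threshold, and the dimmer ESCO2 probe passed it with 2.87 ± 0.36 (SE, adjusted p = 0.00374). The single arrays of si-A2 lay above those of si-A1 for 7 of 8 genes, against 7.87% of all probes, RAD21 being the exception, below for none (7.17%), and all 8 had an unadjusted p below 0.05 (19.1%). SMC3 and RAD21 differed by 0.27 ± 0.11 (SE, adjusted p = 0.203) and 0.39 ± 0.11 (SE, adjusted p = 0.0912). With the replicate block DSCC1 (1.204, adjusted p = 0.0113) and CHTF18 (1.04, adjusted p = 0.0114) missed the threshold. No cohesion gene was called with si-A1 replicate 1, si-A1 replicate 3, si-A2 replicate 1 or si-A2 replicate 4 left out, and 1 and 2 genes were called without si-A1 replicates 2 and 4.

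**Figure D4:**
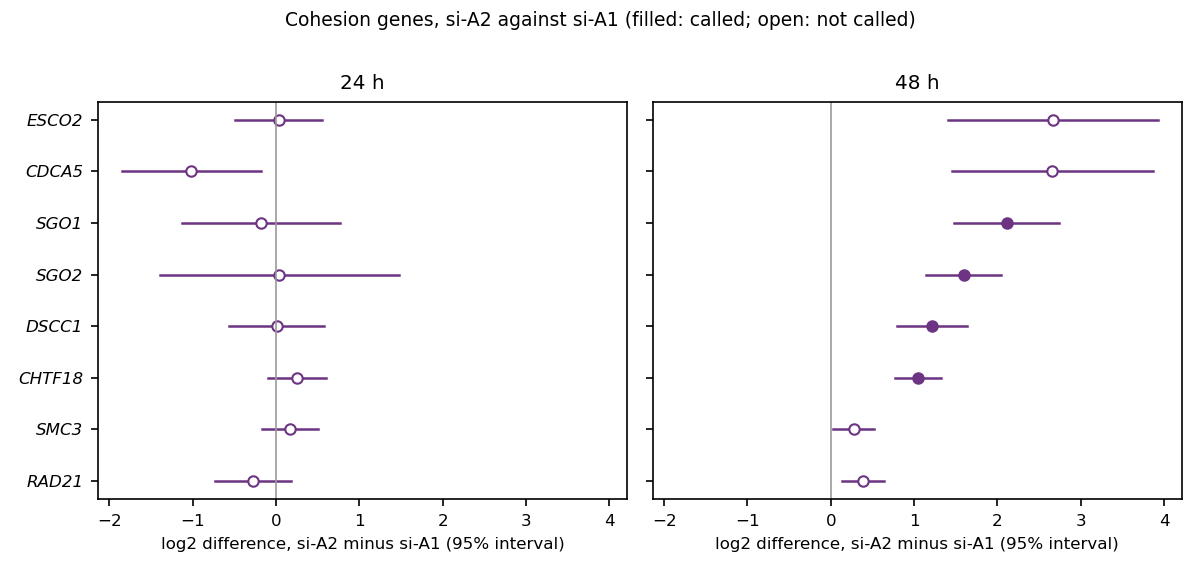
Log2 difference between si-A2 and si-A1 (si-A2 minus si-A1) for each cohesion gene with its 95% confidence interval from limma, at 24 h and 48 h; filled points were called and open points were not. At 24 h the points lie between -1.02 and 0.25, and at 48 h all lie above 0, up to 2.67 for ESCO2.

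The interaction of siRNA and time point was fitted over 35815 probes. No cohesion gene was called in limma for either siRNA. The background was 0.101% of probes with a lower and 0.0586% with a higher si-A1 effect at 48 h, and 0.00279% and 0.0307% for si-A2. By the brightest probe of each gene, an unadjusted p below 0.05 was reached by 4 of 8 genes for si-A1 (13.3% of all probes) and 3 of 8 for si-A2 (7.56%). For si-A1 these were CDCA5 with a change of -1.86 ± 0.67 (SE, adjusted p = 0.222), ESCO2 with -1.49 ± 0.52 (SE, adjusted p = 0.202), RAD21 with -0.88 ± 0.24 (SE, adjusted p = 0.0937) and CHTF18 with -0.75 ± 0.19 (SE, adjusted p = 0.0692), all more negative at 48 h. For si-A2 they were CDCA5 with 1.84 ± 0.7 (SE, adjusted p = 0.527), SGO1 with 1.49 ± 0.63 (SE, adjusted p = 0.58) and DSCC1 with 1.04 ± 0.35 (SE, adjusted p = 0.443), all less negative at 48 h. Time point and array version cannot be told apart, and both siRNA effects of a time point share its scramble arrays.

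The promoter sequences of these genes were searched for elements found in cell cycle genes: the CHR motif (TTTGAA or TTCGAA), the E2F motif (TTTGGCGC, TTTCCCGC, TTTCGCGC or TTTGCCGC) and the CCAAT box (CCAAT), on both strands, from 250 bases before to 50 after the annotated start. RefSeq promoters on GRCh38.p14 were available for 5 genes, CDCA5, SGO1, SGO2, CHTF18 and SMC3. A CHR motif was present in 3 of 5 (CDCA5, SGO1 and SMC3) against 16.4% of all 35116 promoters, an E2F motif in 1 of 5 (CDCA5) against 3.31%, and a CCAAT box in 3 of 5 (SGO1, SGO2 and CHTF18) against 34.6%. In CDCA5 the E2F motif began at -45 and the CHR motif at -26 relative to the start, and in SGO1 the CCAAT box began at -28 and the CHR motif at -3. CHTF18 held 3 CCAAT boxes, SGO2 held 1 that both of its annotated promoters share, and the CHR motif of SMC3 lay on the reverse strand at -151. The 250 bases before the start are shown for 3 genes that fell to different degrees at 48 h after si-A1, CDCA5 (-3.77; chr11:65084041-65084290, minus strand), CHTF18 (-1.37; chr16:788370-788619, plus strand) and SMC3 (-0.6; chr10:110567445-110567694, plus strand), 5′ to 3′ with the motifs in capitals. A match is a description of letters and not evidence of a bound site.
CDCA5: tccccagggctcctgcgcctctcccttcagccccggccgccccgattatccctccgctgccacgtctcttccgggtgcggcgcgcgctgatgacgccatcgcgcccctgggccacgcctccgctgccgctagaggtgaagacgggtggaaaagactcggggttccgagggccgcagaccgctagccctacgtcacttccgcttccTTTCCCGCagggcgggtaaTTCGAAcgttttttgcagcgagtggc
CHTF18: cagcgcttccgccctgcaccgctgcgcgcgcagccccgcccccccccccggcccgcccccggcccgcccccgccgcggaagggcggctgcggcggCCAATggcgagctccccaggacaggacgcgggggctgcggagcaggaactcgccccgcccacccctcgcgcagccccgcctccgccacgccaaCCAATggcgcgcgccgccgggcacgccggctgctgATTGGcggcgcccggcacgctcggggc
SMC3: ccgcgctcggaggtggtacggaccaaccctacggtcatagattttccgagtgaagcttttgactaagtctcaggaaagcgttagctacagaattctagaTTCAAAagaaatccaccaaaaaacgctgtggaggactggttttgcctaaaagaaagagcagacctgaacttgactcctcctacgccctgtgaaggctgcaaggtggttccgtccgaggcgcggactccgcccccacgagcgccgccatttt

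On GRCh38.p14 CDCA5 spans chr11:65061093-65084040, CHTF18 chr16:788620-798074, SGO1 chr3:20160593-20186886, SGO2 chr2:200526142-200584096 and SMC3 chr10:110567695-110606048, and the other genes, ESCO2, DSCC1 and RAD21, are all on chromosome 8. The probes were named through their accessions, and where in a transcript each probe lies was not analysed here.

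The other cohesion genes were described by role, with counts over the brightest probe of each gene. Of the cohesin ring and loader genes SMC1A, STAG1, STAG2, NIPBL and MAU2, none of 5 was called at 24 h by limma after either siRNA, with 2 and 1 at an unadjusted p below 0.05 after si-A1 and si-A2 (13% and 11.7% of all probes). The lowest of the 5 after si-A1 at 24 h was SMC1A (-1.03), with means of 8.99 after scramble and 7.96 after si-A1 and no overlap of single arrays. The paper lists SMC1A among the cell cycle genes regulated at 24 h after TAPIR-1 knockdown. At 48 h SMC1A fell after si-A1 (-1.49) and si-A2 (-0.77) and STAG1 fell after si-A1 (-1.75), a dimmer SMC1A probe was at least 4.48-fold lower after si-A1 by the bound used for CDCA5, and the loader genes NIPBL and MAU2 had values between -0.41 and 0.05. STAG1 was well above background on 2 of 4 si-A1 arrays at 48 h. Of the release and maintenance genes WAPL, PDS5A, PDS5B, ESCO1 and HDAC8, none of 5 was called in any comparison. Without adjustment none of them had a p below 0.05 at 24 h, and at 48 h 2 did after si-A1, 0 after si-A2 and 1 between the siRNAs (28.8%, 17.7% and 19.1% of all probes). ESCO1, the acetyltransferase that acts outside replication, had log2 fold changes of 0.05 and 0.06 at 24 h and -0.01 and -0.01 at 48 h, where ESCO2 had -4.18 and -1.51.

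Replication-coupled genes fell after si-A1 at both time points and after si-A2 at 24 h. Of CHTF8, DDX11, WDHD1, TIMELESS, TIPIN and RFC2, RFC3, RFC4 and RFC5, 7 of 9 were called lower after si-A1 and 6 of 9 after si-A2 at 24 h, and 9 of 9 and none at 48 h. Of all probes, 1.02% and 0.838% were called lower at 24 h and 3.98% and 0.376% at 48 h. The median log2 fold change of the 9 genes was -1.16 and -1.15 at 24 h and -1.81 and -0.58 at 48 h, and after si-A2 at 48 h all 9 had an unadjusted p below 0.05 (17.7% of all probes). CHTF8, the remaining subunit particular to the CTF18 loader, fell after si-A1 by 1.02 at 24 h and 1.36 at 48 h on the log2 scale, and its values after si-A2 were -0.28 and -0.56. WDHD1, which couples the polymerase to the helicase, fell at 24 h by 1.79 and 1.75. RFC4, a clamp loader subunit, fell by 1.61 and 1.46 at 24 h. Between the siRNAs 5 of 9 were higher after si-A2 at 48 h (0.983% of all probes), and none differed at 24 h, with 1 of 9 at an unadjusted p below 0.05 (11.4% of all probes).

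Of the genes for separation, ESPL1, PTTG1, PLK1, BUB1, AURKB and HASPIN, 4 of 6 were called lower after si-A1 and 3 of 6 after si-A2 at 24 h (1.02% and 0.838% of all probes). PLK1 was not among the probes named at 48 h, where 4 of 5 were lower after si-A1 (3.98% of all probes) and 1 of 5, PTTG1, after si-A2 (0.376%). HASPIN, a histone H3 kinase of the centromere, fell by 1.89 and 2.68 at 24 h, and its 48 h values were -3.1 (called) and -1.36 (not called). HASPIN was well above background on only 1 of 4 si-A2 arrays at 24 h and on 3 of 4 si-A1 arrays at 48 h. PTTG1, the separase inhibitor securin, fell at 48 h by 3.01 and 2.23. ESPL1, the separase itself, fell at 48 h after si-A1 (-0.73). The meiotic cohesin genes REC8, STAG3, SMC1B and RAD21L1 served as a comparison, and by the brightest probe of each none of 4 was called in limma in any comparison, with an unadjusted p below 0.05 for STAG3 after si-A1 at 24 h and between the siRNAs at 48 h. A dimmer STAG3 probe was called higher after si-A1 at 48 h (log2 fold change 0.67 ± 0.13, SE, limma adjusted p = 0.009). REC8 was well above background on no array, SMC1B on 1 of 12 at 24 h and 1 of 11 at 48 h, and RAD21L1 on 5 of 12 at 24 h. A fall of these genes could hardly be seen there, so the lack of calls says little about them. At 48 h the brightest RAD21L1 probe was well above background on 11 of 11 arrays. Its log2 fold changes there were -0.045 after si-A1 and -0.002 after si-A2, neither called. STAG3 alone was well above background on every array at both time points.

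Genes that mark proliferating cells moved with the cohesion genes. Of MKI67, TOP2A, CCNA2, CDK1, PCNA, MCM2, MCM6, CDC6, RRM2 and TYMS, 10 of 10 fell after si-A1 at both time points (1.02% and 3.98% of all probes called lower), 9 of 10 after si-A2 at 24 h (0.838%) and 3 of 10 after si-A2 at 48 h (0.376%). The median log2 fold change of these 10 genes was -1.57 and -1.65 at 24 h and -2.15 and -1.26 at 48 h after si-A1 and si-A2, against -1.65, -1.87, -2.53 and -1.01 for the 8 cohesion genes. Between the siRNAs 5 of 10 were higher with si-A2 at 48 h (0.983% of all probes). The part of cell cycle distribution in the levels of the cohesion genes was not tested.

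**Figure D5:**
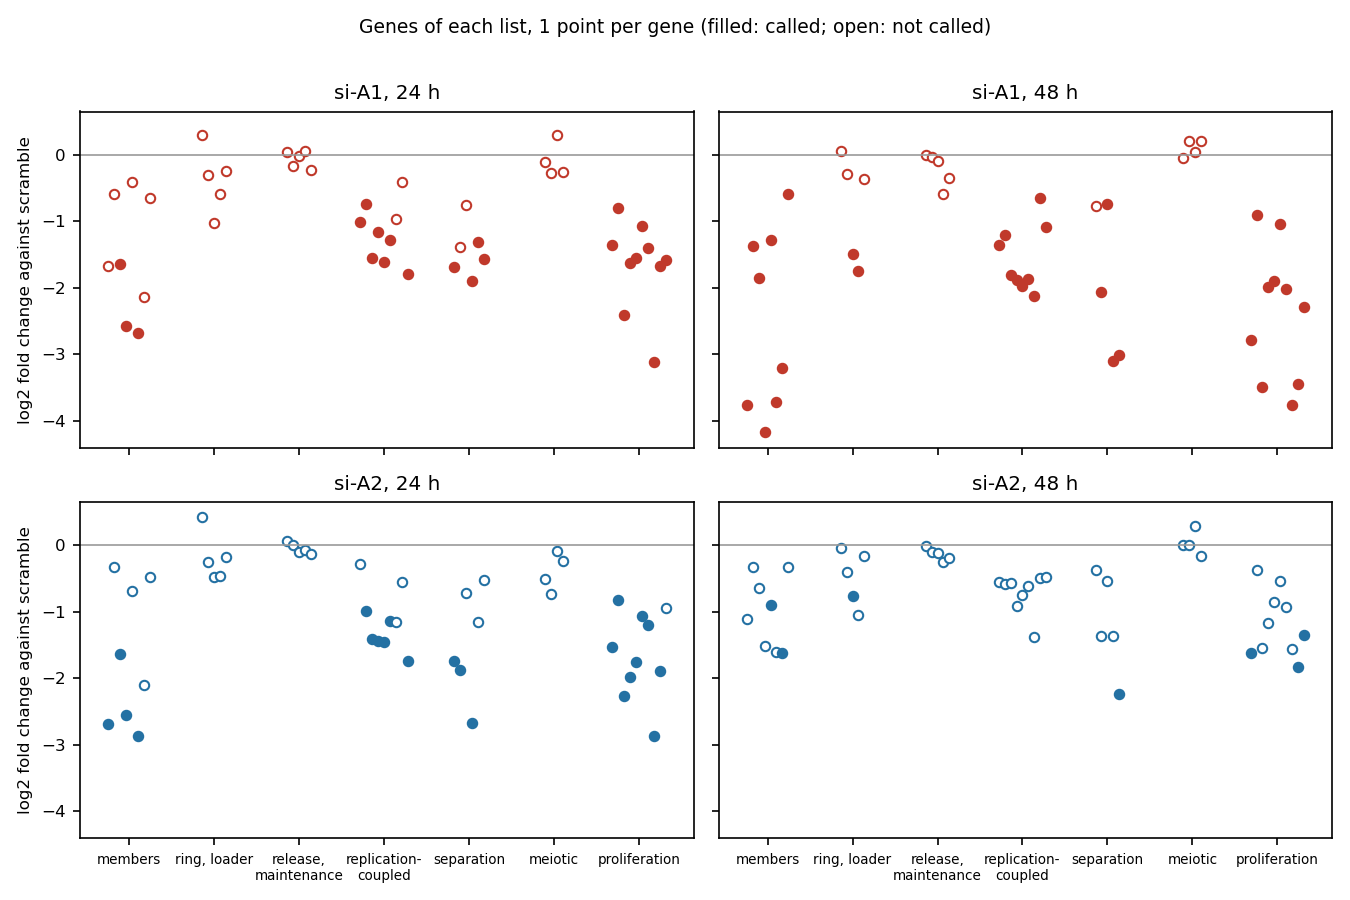
Log2 fold change against scramble of each gene in the lists of cohesion, meiotic and proliferation genes, by siRNA (rows) and time point (columns), with 1 point per gene; filled points were called lower and open points were not called. The release and maintenance genes and the meiotic genes lie between -0.73 and 0.29, and the members, the replication-coupled, the separation and the proliferation genes lie mostly below -0.5. Of the meiotic genes, REC8 was well above background on no array and SMC1B on 1 at each time point.

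Over the 12 arrays at 24 h, the genes whose log2 intensity followed each cohesion gene most closely among 19476 named genes were listed, as a description. ESCO2 was closest to KNTC1 (Pearson r = 0.986), CCNA2 (0.982) and BIRC5 (0.982). SGO1 was closest to PRC1 (0.981), CDKN2C (0.976) and CEP128 (0.973), and CDCA5 to FAM72A (0.949), NCAPD3 (0.948) and CEP78 (0.942). DSCC1 was closest to RFC1 (0.984), NIF3L1 (0.981) and H2AZ1 (0.977), and RAD21 to PSIP1 (0.971), NUP205 (0.962) and ASNS (0.962). SMC3 was closest to EEIG1 (0.968), CHTF18 to SRD5A1 (0.919) and SGO2 to UBL7-DT (0.955). The SGO2 values include si-A1 replicate 4 at 1.94, not well above background, and its correlation without that array was not computed. All points of such a correlation share the same 12 arrays and 3 groups.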

How the data were processed

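LNCaP RNA was measured on Agilent SurePrint G3 one-colour arrays, version 2 at 24 h and version 3 at 48 h, 24 arrays in all. The deposited scanner files give background-corrected intensity per spot, and the authors' table gives log2 values, which they quantile-normalized with limma 3.34.8 in R 3.4.3, per the study's methods. Here the log2 intensity was quantile-normalized over the arrays of a time point, spots with outlier flags and control spots were left out, and spots of a probe were averaged. Probes were kept where 3 or more arrays exceeded the mean plus 3 SD of their 308 negative controls (44849 at 24 h and 45187 at 48 h). A gene was represented by its brightest probe, named through the RefSeq accession in the scanner files (57.4% and 53.4% of probes were named). The alignment of probes in the study's methods was not repeated.

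The 3 groups of a time point were fitted with slide as a term (limma 3.58.1, lmFit and eBayes, R 4.3.3), and p-values were adjusted over all probes tested (Benjamini-Hochberg). The change with time was fitted on 23 arrays normalized together, with slide nested in time. The members and lists were chosen with earlier results of these data known. Genes named were the members and, from each list, those whose role the text describes. Alternatives were background correction, scaling, filters, gene summaries, models and leaving out single arrays. The fit was tested on simulated data with independent noise and no slide effect, a setting that does not cover correlation between arrays. Replicate numbers come from the sample titles: deviations of same-numbered arrays from their group means correlated at 0.179 to 0.354 at 48 h (10 of 10 pairs over 0.1), but at -0.147 to 0.159 at 24 h, so the numbers were taken to pair arrays at 48 h only. Arrays of different numbers on the same slide correlated nearly as much at 48 h (0.0985 to 0.292, 9 of 10 pairs over 0.1), so number and slide are hard to separate there. The main fit holds slide and not number, and calls that ended with the replicate number as a block are given with their genes. The number of arrays limits the precision, with a median residual SD of 0.325 at 24 h and 0.233 at 48 h on the log2 scale.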

Additional observations from a re-analysis of the deposited data

Results flagged for a closer look

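Of 40 groups of 4 arrays, 3 held 1 array far from the others by Dixon's criterion, and chance alone gives about 1 in 20. SGO2 in si-A1 replicate 4 at 24 h lay at 1.94 on the log2 intensity scale and was not well above background. CDCA5 at 48 h lay at 6.19 in scramble replicate 3 and at 1.06 in si-A1 replicate 3, the lowest array of each group, and the second of these values was not well above background.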

How the results depend on the processing

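The dim array, 48 h si-A2 replicate 2, read ESCO2, CDCA5, SGO1, SGO2, DSCC1 and RAD21 below background. With it kept, the number of cohesion genes called at 48 h was 0 after si-A1, 0 after si-A2 and 0 between the siRNAs, and the differences between si-A2 and si-A1 reversed for RAD21 (0.388 to -0.979) and DSCC1 (1.219 to -0.078), as did the changes of the si-A2 effect with time for SGO2 (-0.538), ESCO2 (-0.477), DSCC1 (-0.202) and CHTF18 (-0.036). For si-A1 at 24 h (3 genes), fitting only the groups compared gave 1, and normexp or no background correction gave 5. For si-A2 at 48 h (2 genes), normexp or no background correction gave 5, a log2 fold change of at least 1, no slide term or no filter on low probes gave 1, and the replicate block, only the groups compared or an interquartile range filter gave 0. For si-A2 against si-A1 at 48 h (4 genes), the replicate block gave 2 and only the groups compared gave 0. With single arrays left out the counts were 1 to 3 and 1 to 5 at 24 h after si-A1 and si-A2, and 7 to 8, 0 to 0 and 0 to 4 at 48 h after si-A1, after si-A2 and between the siRNAs. The cause of these changes was not tested. At 24 h, where the replicate numbers did not pair the arrays, the replicate block ended the DSCC1 calls (adjusted p = 0.0217 after si-A1 and 0.0243 after si-A2). It changed no other call than those given here and in the report. Of all the values of single genes under alternatives, 1512 kept their direction and side of the threshold, 137 lost and 18 gained a call, and 33 changed sign, 1 of them a value that had been called (DSCC1 with the dim array). The differences between the siRNAs at 24 h, which were near 0, changed sign for DSCC1, ESCO2 and SGO2 with scaling on the 75th percentile (-0.086, -0.061 and -0.087), without background correction (-0.01, -0.018 and -0.017) and with normexp (-0.007, -0.01 and -0.007). With single arrays left out they ran from -0.211 to 0.211 for DSCC1, -0.174 to 0.148 for ESCO2, -0.789 to 0.477 for SGO2 and -0.51 to 0.238 for SGO1. The changes with time that crossed 0 in such fits ran from -0.389 to 0.067 for DSCC1 and -0.045 to 0.191 for SMC3 after si-A1, and from -0.06 to 0.203 for CHTF18 after si-A2. Uncorrected or normexp intensities gave smaller changes for dim genes, such as -2.10 for ESCO2 after si-A1 at 48 h with normexp. Over all probes and with the dim array left out, the calls lower ranged from 169 to 591 after si-A1 and from 188 to 443 after si-A2 at 24 h, and from 865 to 2041 and from 0 to 622 at 48 h.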
